A study of Homo sapiens with 6 samples.

Results

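The H/ACA-box small nucleolar RNAs (snoRNAs) were taken as every listed gene whose symbol is SNORA followed by a number, which gave 98 of the 17471 genes in the expression table. The libraries came from AN3CA, an established human endometrial cancer line that expresses *PAX2*. RNA-seq was done on 3 libraries of cells with the empty pGFP-C-shLenti vector (shEV) and on 3 of cells given that vector with a hairpin that targets *PAX2* (shPAX2). *PAX2* encodes a developmental transcription factor of the kidney and the female reproductive tract. Cells of both groups were transduced with lentivirus, selected with puromycin and grown in the same serum-containing medium. The knockdown rests on a single hairpin, and the study's text calls the AN3CA control scrambled in places where its methods and the labels give an empty vector. The study says in general that its in vitro experiments were repeated, but the sources used here do not say whether the libraries of a group came from separate cultures, so the p-values measure the spread between these libraries, which may be technical.

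H/ACA snoRNAs fold into a pair of hairpins joined by a hinge, the H box, and end in a tail with the ACA box. They bind dyskerin (*DKC1*), *GAR1*, *NHP2* and *NOP10* and guide the conversion of chosen uridines to pseudouridine in ribosomal and spliceosomal RNA. Most human H/ACA snoRNAs are cut out of introns of protein-coding or non-coding host genes, many of which encode ribosomal proteins or translation factors. Levels are given as TPM, in which the reads of a gene are divided by its length and the values of a library brought to a common sum, so that a short gene has a high TPM from few reads.

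The level of *PAX2* itself, in replicate order, was 4.03, 3.66 and 2.74 TPM in shEV against 0.916, 0.723 and 1.17 TPM in shPAX2. All 3 shPAX2 libraries lay below all 3 shEV libraries, and the log2 fold change was -1.47 (SE 0.18, limma adjusted p = 0.000294). Total reads ran from 10730909 to 18221859 in shEV and from 19422615 to 29405787 in shPAX2, so every shPAX2 library was deeper. The labels call the cells epithelial. *EPCAM*, a defining epithelial gene, had 1 to 6 reads in any library, *CDH1* 0 to 4 and *KRT8* 1 to 6, and *KRT18* was the only epithelial marker of 7 that could be tested, at 10.2 to 17.5 TPM. Of the 3 stromal markers listed, *COL1A2* stood at 809 to 855 TPM in shEV and 360 to 439 TPM in shPAX2, while *COL1A1* and *PDGFRB* had group means of 0.724 to 1.04 TPM. Of the 2 leukocyte markers listed, *PTPRC* had at most 1 read, and *CD68* had 12 to 57 reads and was higher in shPAX2 (log2 fold change 0.59, SE 0.19, adjusted p = 0.0359). Their part in the results below was not tested. *RPPH1* and *RMRP*, the RNAs of RNase P and RNase MRP, took 126650 to 155683 TPM together and weigh on the TPM of all other genes.

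The sequences below carry the results that follow and were read from the GENCODE annotation (release 44) on GRCh37. In capitals, on the strand of the RNA, are the match to the H box sequence (ANANNA) nearest its middle and ACA within the last 8 bases. These matches were found by sequence alone, and whether a marked ANANNA lies in the hinge between the hairpins was not examined. First come the snoRNA that rose most, SNORA80 (chr21:33749496-33749631, minus strand, in an intron of *URB1*), and its relatives SNORA80B (chr2:10586840-10586975, minus strand, in an intron of *ODC1*) and SNORA42 (chr1:155889700-155889836, minus strand, in an intron of *KIAA0907*, now *KHDC4*), whose current RefSeq name is SNORA80E.
SNORA80: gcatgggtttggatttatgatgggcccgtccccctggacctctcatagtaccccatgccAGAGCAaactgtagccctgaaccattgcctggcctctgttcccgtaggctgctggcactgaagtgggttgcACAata
SNORA80B: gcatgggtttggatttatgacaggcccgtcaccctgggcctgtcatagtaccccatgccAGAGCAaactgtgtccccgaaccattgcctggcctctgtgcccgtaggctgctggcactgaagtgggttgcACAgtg
SNORA42: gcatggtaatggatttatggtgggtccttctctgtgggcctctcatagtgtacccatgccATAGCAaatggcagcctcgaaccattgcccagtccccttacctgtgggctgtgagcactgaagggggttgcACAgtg

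SNORA80 and SNORA80B were identical at 91.9% of 136 aligned positions, with a longest shared run of 34 bases. Both carry the ANANNA match AGAGCA from position 60. SNORA42 was identical to SNORA80 at 77.1% of aligned positions, with a longest shared run of 11 bases. The next sequence is that of SNORA47 (chr5:76376259-76376396, minus strand, in an intron of *ZBED3*), the snoRNA that fell most among those above the floor of 3 reads.
SNORA47: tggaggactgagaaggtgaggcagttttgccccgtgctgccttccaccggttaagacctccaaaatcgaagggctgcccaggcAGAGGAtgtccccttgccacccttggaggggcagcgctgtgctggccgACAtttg

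SNORA36A (chrX:153996803-153996934, plus strand, in *DKC1*) and SNORA36C (chr2:69747175-69747306, minus strand, in an intron of *AAK1*) are shown because SNORA36C passed the threshold on very few reads and is a near copy of SNORA36A.
SNORA36A: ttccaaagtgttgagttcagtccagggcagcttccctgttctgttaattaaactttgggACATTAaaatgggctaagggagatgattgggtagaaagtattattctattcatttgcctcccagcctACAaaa
SNORA36C: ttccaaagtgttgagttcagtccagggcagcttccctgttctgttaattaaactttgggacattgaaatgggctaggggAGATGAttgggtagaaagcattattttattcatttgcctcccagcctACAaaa

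These 2 RNAs were identical at 128 of 132 positions, and the longest shared run was 64 bases. The substitutions from SNORA36A to SNORA36C, counted from 1 at the 5′ end of the RNA, were A65G, A76G, T98C and C105T. A65G falls on the last base of the marked match of SNORA36A, ACATTA, so that the ANANNA nearest the middle of SNORA36C lies at position 80. The last 4 sequences come from host genes that hold several snoRNAs: SNORA63 (chr3:186505089-186505220) and SNORA4 (chr3:186505401-186505538) on the plus strand in *EIF4A2*, and SNORA25 (chr11:93463679-93463812) and SNORA8 (chr11:93465527-93465665) on the minus strand in *TAF1D*.
SNORA63: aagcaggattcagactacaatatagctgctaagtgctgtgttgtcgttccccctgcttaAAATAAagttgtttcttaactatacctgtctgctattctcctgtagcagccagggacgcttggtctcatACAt
SNORA4: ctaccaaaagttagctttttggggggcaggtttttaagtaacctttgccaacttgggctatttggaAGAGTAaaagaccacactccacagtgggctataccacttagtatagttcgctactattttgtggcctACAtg
SNORA25: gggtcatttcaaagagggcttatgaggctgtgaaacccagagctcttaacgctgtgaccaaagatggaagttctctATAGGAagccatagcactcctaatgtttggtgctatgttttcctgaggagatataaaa
SNORA8: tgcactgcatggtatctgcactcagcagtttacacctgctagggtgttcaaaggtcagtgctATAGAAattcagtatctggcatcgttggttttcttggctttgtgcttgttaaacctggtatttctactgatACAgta

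All 98 members matched a RefSeq gene, and 80 matched a GENCODE locus on GRCh37. For 50 of the 80 the locus had the length in the expression table, so other sequences can differ from the stretch that was counted. Among those shown, SNORA42, SNORA36A, SNORA36C, SNORA63, SNORA4 and SNORA25 differ from the table in length. Of these 80 loci, 40 lay wholly within an intron of the host and 40 overlapped an exon of at least 1 annotated transcript, retained introns included. Among the 80 sequences 74 (92.5%) held ACA within the last 8 bases and 75 (93.75%) held ANANNA starting in the middle 35% to 65% of the RNA, and 69 (86.25%) held both. SNORA25 is among those without ACA at that place. For comparison, ACA in the last 8 bases occurred in 6.67% of 390 annotated C/D-box snoRNA genes and in 7.40% of 35116 stretches of 134 bases taken from RefSeq promoter windows (GRCh38.p14). The same central ANANNA occurred in 51.0% and 38.6% of these, and both together in 1.79% and 3.62%, all searched on the given strand only. Most of the 80 located members thus carry matches to the 2 boxes that name the class, while a central ANANNA alone is a common match.

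The level of H/ACA snoRNAs as a class was similar in both groups on the TPM scale. Their summed level was 7567, 8063 and 7612 TPM in shEV replicates 1 to 3 and 8774, 8316 and 7213 TPM in shPAX2 replicates 1 to 3, or 0.721% to 0.877% of a library. The groups overlapped, with means of 7747 ± 274 and 8101 ± 802 TPM (SD, n = 3 each) and a ratio of 1.05. Without SNORA63, the most abundant member, the ratio was 0.999. With median-of-ratios scaling of all members the means were 7442 ± 366 for shEV and 8412 ± 843 for shPAX2, a ratio of 1.13, so the ratio depends on the scaling. Fewer cells of a kind and less RNA per cell cannot be told apart in such bulk libraries. On the TPM scale the C/D-box snoRNAs (219 genes, guides of ribose methylation) had a ratio of summed levels of 0.992. The 24 SCARNA genes, small RNAs of the Cajal body, had a ratio of 0.654.

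Few members made up much of this level, in which reads of mature snoRNAs and of host transcripts that span them cannot be told apart. SNORA63, SNORA48 and SNORA12 held 30.3% of the summed mean TPM, and the 8 most abundant members held 47.6%. Mean levels ran up to 932 TPM, with a median of 25.3 TPM. A mean of at least 100 TPM was found for 23 members, 10 to 100 TPM for 49 and under 10 TPM for 26. In reads these levels were small, since a single read on a gene of 134 bases, the median length, was worth 0.488 to 1.39 TPM. Members under 10 reads numbered 34, 22 and 20 in the shEV libraries and 19, 17 and 21 in the shPAX2 libraries. Only 62 members had at least 10 reads in every library, 16 had at least 100, and 6 had 3 reads or fewer in every library.

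The test across all genes addressed which members differed after *PAX2* knockdown. Of the 98 members 97 passed the filter on low values, SNORA70D being left out with 3 reads in a single shPAX2 library. At an adjusted p under 0.05 with at least a 2-fold change, 3 members were called, which is 3.09% of those tested beside 4.54% of all 13163 genes tested. A single member was higher (1.43% of all genes were), and 2 were lower (3.11% of all genes), of which SNORA36C was at the floor of 3 reads and is described below. At an adjusted p under 0.05 without a fold threshold 18 members differed, or 18.6% beside 42.8% of all genes. Of these 10 were higher and 8 lower, where 12.2% of all genes were higher and 30.5% lower. For 25 of the 97 members the libraries of the groups were fully apart, beside 54.9% of all genes. In each of these counts the members' share lay below the background. Leaving out a single library gave 2 to 8 members past the threshold, with 8 without shPAX2 replicate 3, 5 without shPAX2 replicate 2 and 6 without shEV replicate 2. The median SE of a member's log2 fold change was 0.23, against 0.083 for all genes, so a change of the same size was harder to detect in a snoRNA. On simulated reads, however, this fit called unchanged short genes above the nominal rate.

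SNORA36C aside, the fitted log2 fold changes of members ran from -1.47 to 1.83, with a median of 0.07, beside a median of -0.10 over all genes, and 54 were above 0 and 43 below. Median-of-ratios scaling moved the median of all genes to 0.0053 and that of the members to 0.17. It gave 15 members at an adjusted p under 0.05, or 15.5% beside 41.4% of all genes. Of these 15 members 12 were higher, where the TPM scale gave 10 of 18. The C/D-box snoRNAs gave a like picture, with 26 of 175 tested at an adjusted p under 0.05 (14 higher, 12 lower) and a median of 0.09. Their share was 14.9%, beside 42.8% of all genes. Because short genes have few reads for their TPM, each adjusted p below is followed where it matters by that of limma's voom on the recovered reads, which weights values by their reads.

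**Figure D1:**
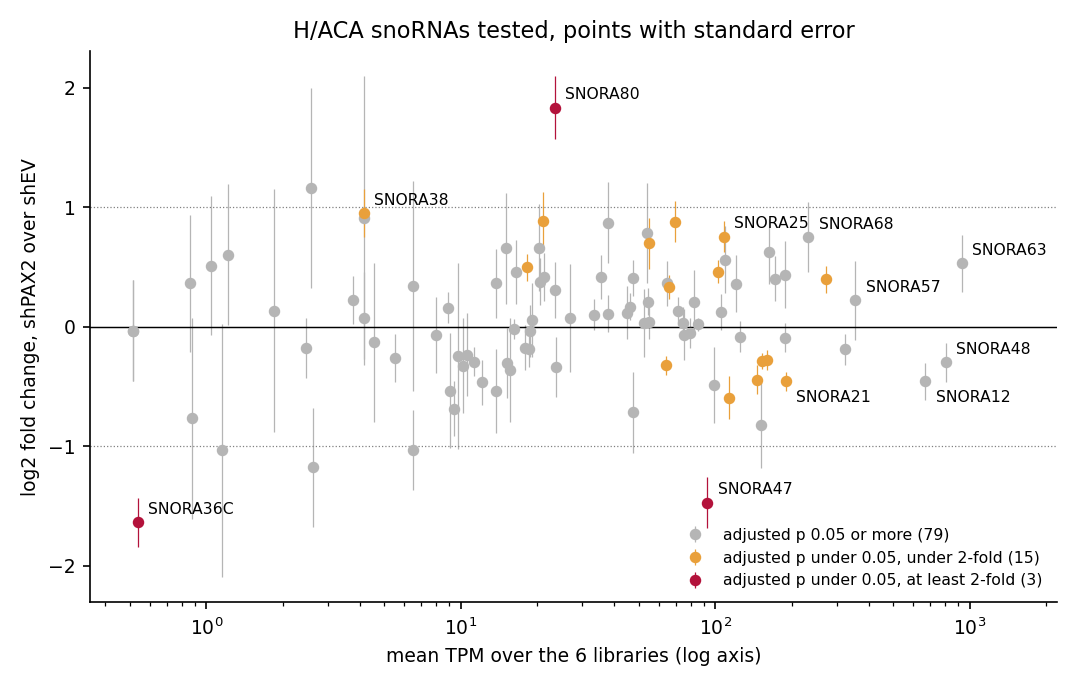
Log2 fold change (shPAX2 over shEV, with SE) of the 97 tested H/ACA snoRNAs against the mean TPM over the 6 libraries on a log axis. The 3 members past the threshold are SNORA80 (1.83), SNORA47 (-1.47) and SNORA36C (at the floor of 3 reads), and 15 more had an adjusted p under 0.05 at less than a 2-fold change.

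SNORA80 was the only member that rose past the threshold in the main fit. Its level was 8.22, 12.5 and 8.96 TPM in the shEV libraries, taken in replicate order, which rested on 6, 15 and 11 reads. The shPAX2 libraries gave 43.2, 42.0 and 25.6 TPM on 90, 77 and 34 reads. Every shPAX2 library lay above every shEV library, with replicate 3 the lowest of the shPAX2 group. The group means were 9.88 ± 2.28 TPM for shEV against 36.95 ± 9.83 TPM for shPAX2 (SD, n = 3 each). SNORA80 rose by 1.83 on the log2 scale (SE 0.27, limma adjusted p = 0.00462), and voom gave 1.88 (adjusted p = 0.000669). Its host *URB1*, which acts in assembly of the large ribosomal subunit, also rose, with a log2 fold change of 0.71 (SE 0.08, adjusted p = 0.00025). The ratio of SNORA80 to *URB1*, in TPM, was 0.332, 0.525 and 0.381 in shEV replicates 1 to 3 and 1.25, 0.975 and 0.623 in shPAX2 replicates 1 to 3, so the snoRNA was higher relative to its host in every shPAX2 library. The ratio was not tested. Reads from an unspliced intron and from the mature snoRNA cannot be told apart in these values.

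The near relatives of SNORA80 did not pass the test. SNORA80B, in an intron of *ODC1* (the rate-limiting enzyme of polyamine synthesis), stood at 12.3, 7.49 and 13.8 TPM in shEV and at 19.7, 27.3 and 9.80 TPM in shPAX2, in replicate order. The groups overlapped through shPAX2 replicate 3 (log2 fold change 0.66, SE 0.46, adjusted p = 0.318). SNORA42 rested on 3, 6 and 4 reads in shEV and 4, 19 and 3 reads in shPAX2, too few to show a change (log2 fold change -0.13, SE 0.67). The ratio of SNORA80 to SNORA80B overlapped between the groups, at 0.647 to 1.67 in shEV and 1.54 to 2.62 in shPAX2.

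SNORA47 was the member with the largest fall among those above the floor of 3 reads. The shEV libraries, in replicate order, gave 115, 168 and 128 TPM on 85, 205 and 160 reads. Those of shPAX2 gave 46.9, 39.8 and 60.9 TPM on 99, 74 and 82 reads. The groups were far apart, and the lowest shEV library stood above the highest shPAX2 library. Its group means were 137 ± 27.7 TPM for shEV against 49.2 ± 10.7 TPM for shPAX2 (SD, n = 3 each). The log2 fold change was -1.47 (SE 0.21, adjusted p = 0.00391), and with voom -1.52 (adjusted p = 2.06e-05). The host *ZBED3*, a zinc finger gene that acts in Wnt signaling, was far lower than its snoRNA, at 2.89, 4.23 and 3.12 TPM in shEV and 3.13, 2.67 and 1.52 TPM in shPAX2. Its log2 fold change of -0.44 (SE 0.23) did not pass the test (adjusted p = 0.156). SNORA47 stood at 39.7, 39.8 and 41.1 times the TPM of *ZBED3* in shEV and at 14.97, 14.92 and 40.15 times in shPAX2. The ratio was thus lower in shPAX2 replicates 1 and 2 and within the shEV range in replicate 3, where *ZBED3* had 21 reads.

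SNORA36C passed the threshold on 3 reads in all. It had 1 read in each shEV library and 0 in each shPAX2 library, which is at or under the floor of 3 reads in every library, so no fold is given. It passed the filter on low values only through the shEV libraries, where it is higher, so its call is given as a description and supports no difference. Without it the calls past the threshold are SNORA80 and SNORA47. SNORA36A, its near copy in *DKC1*, had 7, 7 and 12 reads in shEV and 6, 11 and 4 reads in shPAX2 (log2 fold change -1.03, SE 0.33, adjusted p = 0.0546). A read from the shared run of 64 bases can belong to either gene, and how such reads were counted is not given in the sources used here.

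**Figure D2:**
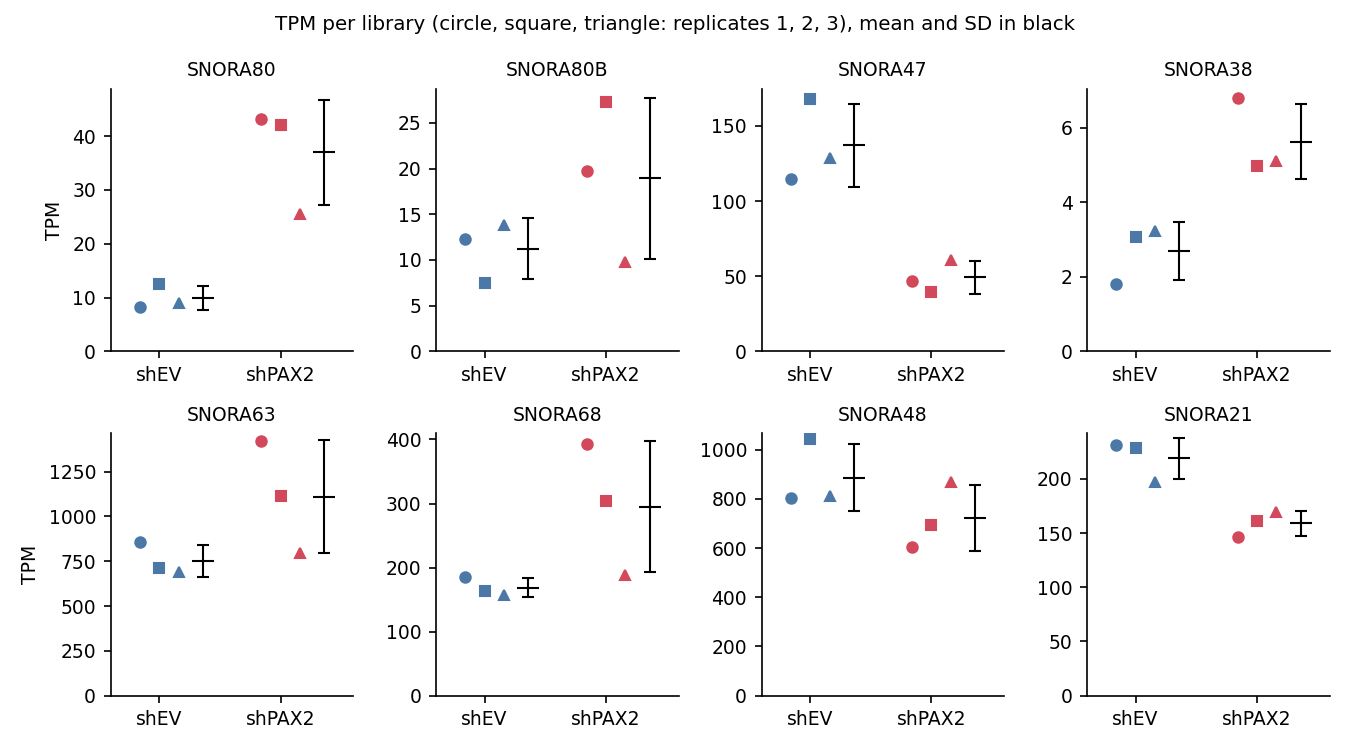
TPM in each library (y axes from 0, separate for each panel) of 8 H/ACA snoRNAs, with the mean and SD of each group in black. SNORA80 and SNORA38 were higher and SNORA47 and SNORA21 lower in all 3 shPAX2 libraries, whereas shPAX2 replicate 3 of SNORA63 lay within the shEV range and that of SNORA68 just above it.

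Among the 8 most abundant members 2 passed the test, both below a 2-fold change. SNORA21, which overlaps an exon of at least 1 transcript of the ribosomal protein gene *RPL23*, stood at 231, 228 and 197 TPM in shEV and 146, 161 and 170 TPM in shPAX2. It was lower in every shPAX2 library (log2 fold change -0.46, SE 0.08, adjusted p = 0.00218), while *RPL23* had a log2 fold change of -0.01 (SE 0.08). SNORA43, in the non-coding host *SNHG7*, stood at 250, 212 and 240 TPM in shEV and 305, 360 and 266 TPM in shPAX2, higher in every shPAX2 library (log2 fold change 0.40, SE 0.11, adjusted p = 0.0232). The call on SNORA43 was lost without shEV replicate 2 or 3 (adjusted p = 0.0754 and 0.0538) and without shPAX2 replicate 1 or 2 (adjusted p = 0.0811 and 0.0542). Its partner in *SNHG7*, SNORA17, had a like value of 0.42 (SE 0.18) that did not pass (adjusted p = 0.119).

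The other 6 abundant members did not pass, and several of them spread widely among the shPAX2 libraries. SNORA63 stood at 857, 710 and 689 TPM in shEV and 1424, 1116 and 794 TPM in shPAX2 (log2 fold change 0.53, SE 0.24, adjusted p = 0.131). SNORA68 stood at 185, 163 and 157 TPM in shEV and 393, 305 and 189 TPM in shPAX2 (log2 fold change 0.75, SE 0.29, adjusted p = 0.102). For both, shPAX2 replicate 1 was the highest library and replicate 3 the lowest of its group, and replicate 3 lay within the shEV range for SNORA63 and just above it for SNORA68. SNORA57, in *METTL12*, showed the same order at 533, 404 and 235 TPM, below all shEV libraries (291 to 333 TPM) in replicate 3. Without shPAX2 replicate 3 the log2 fold changes were 0.75 for SNORA63 (adjusted p = 0.00867), 1.04 for SNORA68 (adjusted p = 0.000752) and 0.55 for SNORA57 (adjusted p = 0.0143), and without replicate 1 that of SNORA57 turned to -0.04. Replicate 1 was the deepest shPAX2 library and replicate 3 the shallowest, and the part of depth in this spread was not tested. Over all 97 members replicate 3 was the lowest shPAX2 library for 45.4%, beside 35.8% of all genes.

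SNORA48, SNORA12 and SNORA8 leaned the other way without passing. SNORA48, in *EIF4A1*, stood at 803, 1044 and 813 TPM in shEV and 605, 695 and 868 TPM in shPAX2 (log2 fold change -0.30, SE 0.16, adjusted p = 0.182). SNORA12, in *CWF19L1*, stood at 696, 824 and 787 TPM in shEV and 668, 588 and 444 TPM in shPAX2. Its groups did not overlap, and its log2 fold change of -0.46 (SE 0.15) lay just outside the threshold (adjusted p = 0.0528).

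The remaining members at an adjusted p under 0.05 are named here after their values were seen. Those higher in shPAX2 were SNORA38, SNORA20 and SNORA33, described with their chromosome, SNORA25, SNORA40 and SNORA1 of *TAF1D*, SNORA16A of *SNHG12* and SNORA9 of *SNHG15*. SNORA16A stood at 51.4, 50.7 and 43.0 TPM in shEV and 108, 94.1 and 69.6 TPM in shPAX2, with no overlap (log2 fold change 0.88, SE 0.17, adjusted p = 0.00876). Relative to *SNHG12*, which also rose (0.33, SE 0.09), it stood at 0.659 to 0.729 in shEV and 0.879 to 1.30 in shPAX2. Those lower were SNORA23, SNORA24, SNORA6, SNORA64 and SNORA4, with log2 fold changes from -0.59 to -0.28. Under median-of-ratios scaling all 5 of these lower calls were lost, at adjusted p = 0.0834 for SNORA23, 0.0615 for SNORA24, 0.0504 for SNORA6, 0.0553 for SNORA64 and 0.108 for SNORA4. SNORA23, in the nuclear import gene *IPO7*, stood at 108, 142 and 156 TPM in shEV and 78.1, 82.8 and 108 TPM in shPAX2, while *IPO7* rose (0.26, SE 0.07, adjusted p = 0.014). Over the alternatives the adjusted p reached 0.134 for SNORA23 and 0.0922 for SNORA9, both lost without shEV replicate 2 or 3 and without shPAX2 replicate 1 or 2, and 0.0767 for SNORA24, lost without shPAX2 replicate 1. With voom 14 of the 18 members kept an adjusted p under 0.05, and SNORA1, SNORA6, SNORA4 and SNORA9 did not (adjusted p = 0.138, 0.106, 0.0761 and 0.0706).

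Whether members moved with their host genes was examined next. A host listed in the table was found for 93 members. For members without a GENCODE locus, such as SNORA23, SNORA24, SNORA16A and SNORA43, the strand of the host was not checked. The 93 members lay in 71 host genes, and 92 pairs had both partners tested. Of these hosts 28 had an adjusted p under 0.05 (13 higher, 15 lower), which is 39.4% beside 42.8% of all genes, and none passed the fold threshold. In 53 of the 92 pairs snoRNA and host had log2 fold changes of the same sign. Across the pairs Pearson's r was 0.40 and Spearman's rho 0.34, and among 46 members with a mean of at least 50 reads r was 0.52 and rho 0.36. These are descriptions over 70 and 32 host genes, since members of a host share its value and all pairs share the 6 libraries. The median absolute difference between a snoRNA and its host was 0.33 on the log2 scale.

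Of the 18 members at an adjusted p under 0.05, 9 had a host that also passed, 8 of them in the same direction. Among all 71 hosts 39.4% passed, and the difference from that share was not tested. The same-direction pairs included SNORA80 with *URB1*, SNORA24 with *SNHG8* (-0.44 and -0.39), SNORA16A with *SNHG12* and SNORA4 with *EIF4A2*. The rest were SNORA38, SNORA20 and SNORA33 with their hosts on chromosome 6, described below, and SNORA36C with *AAK1*. The call on SNORA36C rests on 3 reads in all and supports no difference. SNORA23 and *IPO7* were the pair in opposite directions. SNORA74A, in *SNHG4*, had the lower value in all 3 shPAX2 libraries (91.5 to 120 TPM against 130 to 305 TPM) but did not pass (log2 fold change -0.82, SE 0.36, adjusted p = 0.137), while *SNHG4* did (-0.48, adjusted p = 0.00246).

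**Figure D3:**
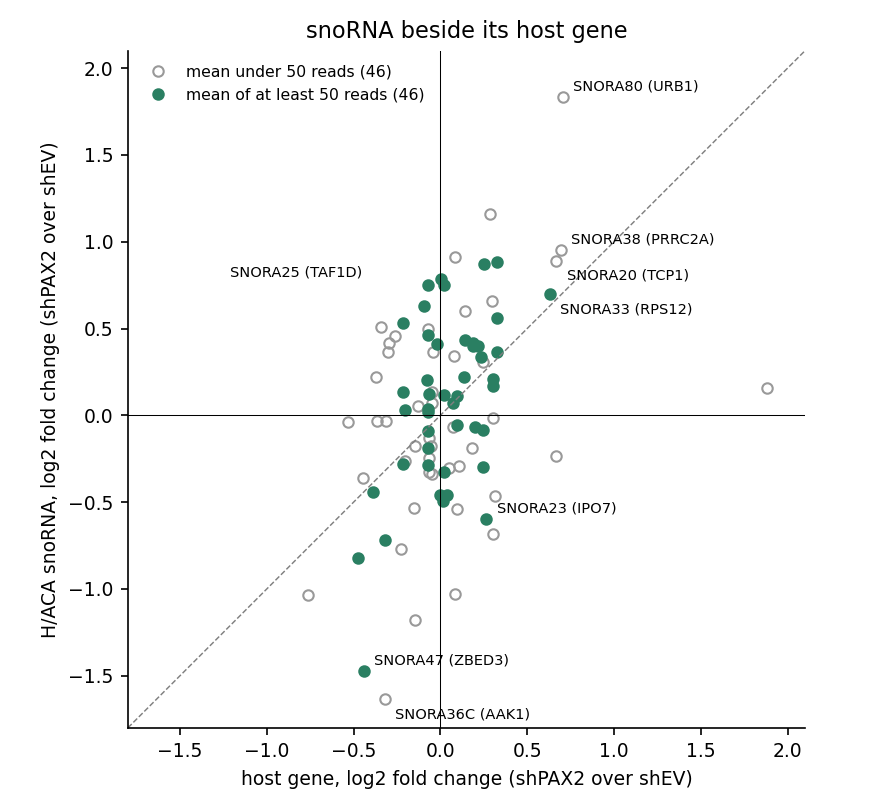
Log2 fold change (shPAX2 over shEV) of each H/ACA snoRNA against that of its host gene for 92 pairs, with filled points for members with a mean of at least 50 reads and the dashed line marking equal change. SNORA80 lies above the line (1.83 against 0.71 for *URB1*), SNORA47 below it (-1.47 against -0.44 for *ZBED3*), and the point far to the right is SNORA69 in *RPL39* (0.16 against 1.88, the host not passing the test).

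Members of the same host gene are given side by side here, and differences between them in change were not tested. Their log2 fold changes were close in *SNHG7* (0.40 and 0.42) and spread most widely in *DKC1* (-1.03 and 0.91, neither passing). Of 14 hosts with at least 2 tested members, *TAF1D*, a subunit of the factor that directs RNA polymerase I, held most, 6 snoRNAs with mean levels from 18.2 to 323 TPM, a 17.7-fold range. SNORA25 stood at 91.7, 67.7 and 81.4 TPM in shEV and 146, 144 and 116 TPM in shPAX2 (log2 fold change 0.75, SE 0.13, adjusted p = 0.00327). SNORA40 stood at 89.5, 91.8 and 77.6 TPM in shEV and 132, 120 and 105 TPM in shPAX2 (log2 fold change 0.46, SE 0.10, adjusted p = 0.00516). Both were higher in every shPAX2 library. SNORA1 also rose (0.50, SE 0.12, adjusted p = 0.0092), while SNORA8, SNORA32 and SNORA18 had log2 fold changes of -0.19, -0.09 (0.0209 with median-of-ratios scaling) and 0.02 and did not pass, nor did *TAF1D* itself (-0.07, SE 0.08, adjusted p = 0.492). SNORA8 stood at 362, 352 and 313 TPM in shEV and 245, 313 and 350 TPM in shPAX2. The ratio of SNORA25 to SNORA8, a pair chosen for its difference and therefore not tested, was 0.254, 0.192 and 0.260 in shEV and 0.594, 0.459 and 0.333 in shPAX2. This ratio within a library does not depend on how libraries are scaled.

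In *EIF4A2*, which encodes an RNA helicase of translation initiation, SNORA4 passed the test as lower and SNORA63 did not pass. SNORA4 stood at 192, 161 and 174 TPM in shEV and 132, 152 and 149 TPM in shPAX2, lower in every shPAX2 library (log2 fold change -0.28, SE 0.08, adjusted p = 0.0224). The call on SNORA4 was lost with median-of-ratios scaling, which moved it most (log2 fold change -0.17, adjusted p = 0.108). It was also lost without shEV replicate 1 or 3 (adjusted p = 0.0725 and 0.0598), with voom (0.0761), and without trend and robust (0.0502). *EIF4A2* fell by a like amount (-0.22, SE 0.07, adjusted p = 0.029). SNORA81, the third snoRNA of this gene, had a log2 fold change of 0.13 (SE 0.12). The ratio of SNORA63 to SNORA4, again chosen for its difference, was 4.47, 4.41 and 3.96 in shEV and 10.8, 7.33 and 5.33 in shPAX2, with no overlap. In the paralog *EIF4A1*, which rose (0.24, SE 0.07), SNORA48 and SNORA67 had log2 fold changes of -0.30 and -0.08 (the latter 0.0296 with median-of-ratios scaling) that did not pass.

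**Figure D4:**
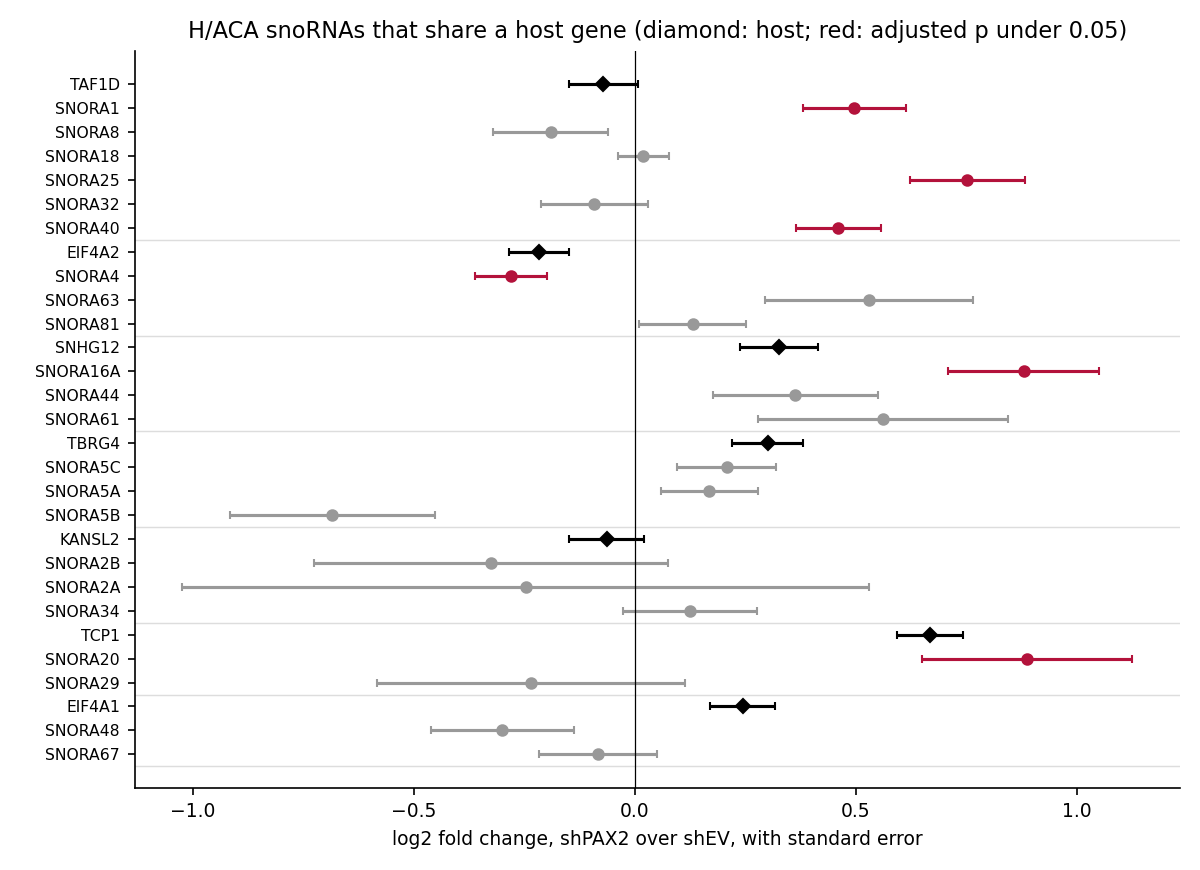
Log2 fold change (shPAX2 over shEV, with SE) of H/ACA snoRNAs grouped by 7 shared host genes, hosts as diamonds and members with an adjusted p under 0.05 in red. In *TAF1D* 3 of 6 members lie between 0.46 and 0.75 while the host and the other 3 lie between -0.19 and 0.02.

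Of the 4 members on chromosome 6, 3 rose at an adjusted p under 0.05, beside 42.8% of all genes (12.2% higher). The share called among all genes of that chromosome was not counted. Genes of that chromosome as a whole were higher in shPAX2. Over its 649 tested genes the log2 fold changes had a median of 0.39, where genes elsewhere had a median of -0.12. SNORA38, in *PRRC2A*, stood at 1.81, 3.06 and 3.24 TPM in shEV and 6.79, 4.98 and 5.10 TPM in shPAX2 (log2 fold change 0.95, SE 0.20, adjusted p = 0.00571). SNORA20, in the chaperonin gene *TCP1*, stood at 9.88, 18.9 and 15.9 TPM in shEV and 28.2, 25.9 and 27.2 TPM in shPAX2 (0.89, SE 0.24, adjusted p = 0.0319). SNORA33, in *RPS12*, stood at 47.6, 43.4 and 33.3 TPM in shEV and 59.9, 87.0 and 57.0 TPM in shPAX2 (0.70, SE 0.21, adjusted p = 0.0489). These 3 were higher in every shPAX2 library, and their hosts were too, with log2 fold changes of 0.69, 0.67 and 0.63. SNORA29, also in *TCP1*, overlapped between the groups on 7 to 20 reads (-0.23, SE 0.35). The ratio of SNORA38 to *PRRC2A* overlapped between the groups, at 0.167 to 0.288 in shEV and 0.257 to 0.383 in shPAX2. The call on SNORA38 passed in all 16 alternative fits that tested it. SNORA20 was lost without shEV replicate 3 and without any of the shPAX2 libraries, and SNORA33 without any library but shPAX2 replicate 2, at adjusted p up to 0.108 and 0.0929 over the alternatives. The part of the chromosome's shift in these 3 calls was not tested. *URB1* and SNORA80 lie on chromosome 21, whose 120 tested genes had a median of -0.08, beside -0.10 for genes elsewhere. SNORA47 lies on chromosome 5, whose median was -0.17, beside -0.10 elsewhere. The part of these chromosome medians in the calls was not tested either.

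Copies and counting limit some members. SNORA38 has a length in the table of 924 bases, 7 times its own 132 bases. Its TPM is thus lower than reads divided by its own length would give, while the ratio of its TPM between libraries is not affected. At this low TPM the pseudocount makes its fitted change, 0.95, smaller. Voom gave 1.03 (adjusted p = 0.00838) and median-of-ratios scaling 1.05 (limma adjusted p = 0.00457). With these and with a pseudocount of 0.1 SNORA38 passed the threshold as higher. SNORA59A and SNORA59B had identical values in every library and a length of 304 bases, which is 2 times that of the 152-base locus, and are treated as the same reads listed under both names. Among 21 pairs of members that share a family number and have a locus, 4 were at least 90% identical: SNORA36A with SNORA36C, SNORA80 with SNORA80B, SNORA14A with SNORA14B (91.1%) and SNORA70 with SNORA70B (90.4%). SNORA14A and SNORA14B had log2 fold changes of 0.34 and 0.36, and SNORA70 and SNORA70B of 0.40 and -0.77, and none of these passed.

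The mRNAs that encode the proteins of the H/ACA particle had log2 fold changes from -0.15 to 0.26. Of 8 core and assembly genes 3 had an adjusted p under 0.05, all higher, and none a 2-fold change, which is 37.5% beside 42.8% of all genes. They were *NHP2*, a core protein (0.18, SE 0.06, adjusted p = 0.0471), and *RUVBL1* and *RUVBL2*, ATPases of the assembly machinery (0.19 and 0.26, adjusted p = 0.0427 and 0.0071). *DKC1*, the pseudouridine synthase, stood at 120, 123 and 124 TPM in shEV and 110, 136 and 147 TPM in shPAX2, overlapping between the groups (0.09, SE 0.10, adjusted p = 0.517). *GAR1*, *NOP10*, *NAF1* and *SHQ1* did not pass either, with values from -0.15 to 0.15.

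Genes that trim, degrade or release snoRNAs likewise showed small values. Of 11 listed genes of small RNA processing and decay 2 (18.2%, beside 42.8% of all genes) passed without a 2-fold change, the exosome subunit *EXOSC3* (0.22, SE 0.06, adjusted p = 0.0213) and *ZCCHC7* (-0.20, SE 0.07, adjusted p = 0.0439). The debranching enzyme *DBR1*, which opens intron lariats, had a log2 fold change of -0.04 (SE 0.05), and none of the 3 genes of that list passed. Of 9 nucleolar and rRNA genes 5 were higher at an adjusted p under 0.05, or 55.6% beside 42.8% of all genes (12.2% higher). *NPM1*, an abundant nucleolar chaperone, rose by 0.59 on the log2 scale (SE 0.07, adjusted p = 0.000342), with *NOP58* at 0.37, *NCL* at 0.30, *NOLC1* at 0.25 and *NOP56* at 0.24.

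Small RNAs without a SNORA name, only some of them with an H/ACA domain, were counted apart. The telomerase RNA *TERC*, which ends in an H/ACA domain, stood at 128, 132 and 123 TPM in shEV and 134, 116 and 87.9 TPM in shPAX2 and did not pass (-0.20, SE 0.14, adjusted p = 0.295). Of the 24 SCARNA genes, which hold H/ACA, C/D or both kinds of domain, 9 had an adjusted p under 0.05, all lower, which is 37.5% beside 42.8% of all genes (30.5% lower). Of these 4 fell at least 2-fold, or 16.7% of the 24, beside 3.11% of all genes lower past the threshold. The median log2 fold change over all 24 was -0.40. Which domains each SCARNA holds was not examined, so these falls are not assigned to H/ACA RNAs. *SCARNA9* stood at 165, 151 and 161 TPM in shEV and 40.0, 37.6 and 35.7 TPM in shPAX2 (-2.06, SE 0.06, adjusted p = 1.52e-07). *SCARNA7* stood at 835, 781 and 893 TPM in shEV and 193, 194 and 251 TPM in shPAX2 (-1.98, SE 0.11, adjusted p = 5.55e-06). The other 2 were *SCARNA9L* (-1.48) and *SCARNA5* (-1.18). The difference between SNORA and SCARNA genes in their share of calls was not tested.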

How the data were processed

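The 6 AN3CA libraries, 3 shEV and 3 shPAX2, were grouped by their labels. The authors deposited TPM values for 17471 genes on hg19. Per the labels, the libraries were made with a stranded total RNA kit. The submitters' processing notes name bcl2fastq, STAR, Subread, featureCounts and edgeR, without versions, and how reads shared by copies were counted is not given in the sources used here.

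Whole reads were recovered from the TPM ratios between libraries, which were ratios of whole numbers in 100% of genes with a largest relative deviation of 7.15e-14, apart from a whole-number factor that a gene's libraries can share. This factor was restored for 4 members by matching the implied gene length to RefSeq, and the implied length equalled the RefSeq length for 90 of 98 members. Total reads per library ran from 10730909 to 29405787. Floors and read counts cover counting error only, since reads carry no molecular identifiers, and a gene at 3 reads or fewer was treated as at the floor.

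The 13163 genes that reached 0.5 TPM in 3 or more libraries entered a two-sided limma fit (limma 3.58.1, R 4.3.3) of log2(TPM + 0.5) on the group alone. It used lmFit and then eBayes, trend and robust options on, and p-values were adjusted by Benjamini and Hochberg's method across these genes. A call needed an adjusted p below 0.05 together with a log2 fold change of 1 or more in size. The pseudocount makes the fold changes of low genes too small. Named members were those past the threshold, the 8 of highest mean TPM and those sharing a host with them, and others are named as chosen after their values were seen. The members and lists were chosen with earlier results of these data known. The trend follows TPM, so a short gene with few reads is set beside long genes with many, and on simulated reads calls of short genes exceeded the nominal rate, whereas voom on the reads did not. The host was the shortest listed RefSeq gene around a member, read-through genes aside, loci and introns came from GENCODE release 44 on GRCh37, and sequences were aligned with Biopython 1.88. Alternatives were other pseudocounts, filters, scalings, thresholds, voom on the recovered reads, a replicate block and leaving out each library.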

Additional observations from a re-analysis of the deposited data

How the results depend on the processing

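SNORA80 and SNORA47 kept an adjusted p under 0.05 and a change of at least 2-fold in all 17 alternative fits (log2 fold changes 1.704 to 2.076 and -1.64 to -1.32). The fit with no filter aside, SNORA36C was tested only where all 3 shEV libraries carried it through the filter, so its calls say nothing of stability. The count past the threshold, 3, became 5 with quantile normalization, 18 with no fold threshold, and 2 to 8 when a library was left out, the highest without shPAX2 replicate 3. The higher count, 1, became 2 with a pseudocount of 0.1, with median-of-ratios scaling and with voom, 3 with quantile normalization, 10 with no fold threshold and 1 to 5 when a library was left out. The member added by the pseudocount of 0.1, by median-of-ratios scaling and by voom was SNORA38. The lower count, 2, became 1 with the TPM 5 and the 10-read filters, which dropped SNORA36C, 8 with no fold threshold, and 1 to 3 when a library was left out, the lowest being the fit lacking shEV replicate 1. The median, 0.07, became 0.17 with median-of-ratios scaling, 0.15 with quantile normalization and 0.0037 to 0.13 when a library was left out. Host genes past the threshold went from 0 to 1 without trend and robust and to 28 with no fold threshold, and the H/ACA protein genes from 0 to 3 with no fold threshold. Signs turned with median-of-ratios scaling for SNORA32 (0.0209) and SNORA67 (0.0296). When a library was left out they turned for SNORA57 (-0.0426 to 0.547, lowest without shPAX2 replicate 1), SNORA67 (-0.238 to 0.0118, highest without shEV replicate 2), SNORA18 (-0.0188 to 0.0472, lowest without shEV replicate 3) and SNORA81 (-0.0044 to 0.243, lowest without shEV replicate 2). Median-of-ratios scaling also ended 5 of the 8 lower calls at an adjusted p under 0.05. Its factors differed by -0.113 on the log2 scale between shPAX2 and shEV, and dividing by them moves the log2 fold changes of all genes upward. What lies behind this difference was not tested. The 18 members at an adjusted p under 0.05 numbered 15 to 23 in the other fits and 17 to 27 when a library was left out. The replicate numbers did not pair the libraries (correlations of deviations -0.05, 0.08 and 0.0014), and with a replicate block 4 members passed the threshold and 23 had an adjusted p under 0.05, 14 of them among the 18. A threshold at an adjusted p of 0.01 left 3 past it. Depth limits the rest, since 36 of the 98 members had under 10 reads in at least 1 library.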
